A study of Mus musculus with 12 samples.

Results

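The genes described here are the 73 expressed protein-coding neighbours of Il1r1 on mouse chromosome 1. They were chosen by position and level, with some genes left out by name: a gene qualified if its GRCm38 start lay within 10 Mb of 40225080, the start of Il1r1, and if its mean over the 12 libraries reached 1 CPM (expected counts scaled to 1 common library total). The window holds 105 protein-coding genes, of which 23 were below 1 CPM and 9 were left out by name, 5 of them at 1 CPM or more. The deposited tables list 38924 genes, and 13883 protein-coding genes reached 1 CPM. All 73 members passed the low-count filter and were tested. The first is Phf3, which starts 9422.7 kb below Il1r1, and the last is Slc39a10, 6582.5 kb above it. The nearest expressed genes outside are Adgrb3, 15157.6 kb below, and Tmeff2, 10675.6 kb above. Just under the level limit were Ptpn18 at 0.731 CPM and Neurl3 at 0.832 CPM, and just over it were Zap70 at 1.36 CPM and Fer1l5 at 1.55 CPM. Of the members, 51 start below Il1r1 and 22 above it, with 36 on the plus strand and 37 on the minus strand.

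The series measured polyadenylated RNA of whole brains from 6-week-old mice, 3 mice for each of 4 genotypes. The wild-type (WT) mice and the mice homozygous for the high stepper allele h1 of Rorb (Rorbh1/h1) were on C57BL/6J. The mice homozygous for h2 (Rorbh2/h2) were on B6(Cg)-Tyrc-2J/J, a strain with a mutated tyrosinase gene, and those homozygous for h4 (Rorbh4/h4) were on B6.129S7-Il1r1tm1Imx/J, a strain with a targeted Il1r1 gene. In h2 and h4 the Rorb allele and the strain therefore cannot be told apart, and the mice of 1 genotype are the replicates. Whole brain mixes many cell types, so that fewer cells of a type and less RNA per cell cannot be told apart either.

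Il1r1 encodes the receptor through which interleukin 1 signals in inflammation, and it sits in a row of related receptor genes. A targeted allele made in embryonic stem cells of a donor strain and then bred onto C57BL/6 keeps a stretch of the donor's chromosome on both sides of the targeted gene, because nearby DNA is inherited together. The neighbours of the target can then carry donor variants, called passengers, that differ from C57BL/6 in sequence or in expression. How far the donor stretch reaches in these mice was not measured here. Of the 4 groups, h4 alone has the Il1r1-targeted strain, which is why the members were compared between h4 and the mean of WT, h1 and h2 as well as pair by pair.

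Library totals ranged from 14513825 to 24694178 expected counts, both in h2; the h4 totals were 17667258 to 18388706, those of WT 20168835 to 21472438 and those of h1 20310860 to 24000838. By Xist, the RNA of the inactive X chromosome, all 3 WT mice, 1 h1, 1 h2 and 2 h4 mice were female. The females were replicate 1 of h1, replicate 2 of h2 and replicates 1 and 3 of h4. The summed CPM of 5 astrocyte markers was 1874 to 1979 in h4 and 1609 to 1784 across the other groups. Of these markers, Gfap, Aldh1l1 and Slc1a3 were higher in each h4 library than in any other library. Aqp4 (327 to 365 CPM in h4, 347 to 383 CPM in h2) and Gja1 overlapped other groups. The sum of 6 oligodendrocyte markers was 13027 to 13402 CPM in h1 and 10098 to 12270 CPM across the other groups. For 4 endothelial markers it was 124 to 139 CPM in h1 and 141 to 155 CPM across the other groups. Markers of skeletal muscle (3.35 to 5.58 CPM in all) and retina (2.61 to 4.86 CPM) were near 0, and 6 neuronal markers summed to 4483 to 4705 CPM. Il1r1 itself was higher in h4, at 10.9, 16.9 and 12.5 CPM, than in every other library (5.67 to 8.87 CPM), and its log2 difference from WT was 0.76 ± 0.13 (SE; edgeR adjusted p = 0.00161). The part of the astrocyte markers and of sex in the differences below was not tested, except that a fit with Xist as a covariate is given where it ended or added a call.

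The 73 members spanned a wide range of levels in whole brain. Their mean level ran from 1.36 CPM to 679 CPM, with a median of 27.7 CPM, and the highest count belonged to Dst, which encodes dystonin, a large linker between cytoskeletal filaments. Per transcript length the range was 0.879 to 205 TPM, a unit scaled by transcript length and library total, with a median of 22.5 TPM. On that scale the highest were Actr1b, a subunit of the dynactin motor complex, at 205 TPM, Plekhb2, an endosomal membrane protein, at 175 TPM, and Bend6, a repressor that binds the Notch pathway factor CSL, at 151 TPM. The median standard error of a member's log2 fold change was 0.051 for h4 against the other 3 groups and 0.061 to 0.063 for single pairs of groups.

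Most members differed little between genotypes. A gene is called here when its edgeR quasi-likelihood p, adjusted by Benjamini-Hochberg over all 16493 genes tested, is under 0.05. In h4 against the other 3 groups, 8 of 73 members were called (11%), beside 6.63% of all genes tested. Of these, 4 were higher in h4 (background 2.89%) and 4 were lower (background 3.73%). In 7 members the h4 libraries did not overlap the other 9 (9.59%, background 6.9%). Other sets had shares of the same order: 9.31% of the 741 expressed protein-coding genes on the rest of chromosome 1 were called, and 6.67% of the 90 within 10 Mb of Rorb on chromosome 19. Of the 13810 expressed protein-coding genes that are not members, 7.47% were called. The median absolute log2 fold change was 0.0753 for the members and 0.0741 for all genes tested. The signed median was -0.03 for the members, with 28 above 0 and 45 below, and 0.0075 for all genes. The 95% interval of 51 of the 73 members lay within a 1.2-fold difference either way, that of 72 within 1.5-fold and that of all 73 within 2-fold. The count of 8 depended on single libraries: it was 1 without h4 replicate 1, 2 without h4 replicate 3, 3 without h4 replicate 2, 4 without h1 replicate 3, and 5 without WT replicate 1, WT replicate 2, h1 replicate 2 or h2 replicate 2.

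**Figure D1:**
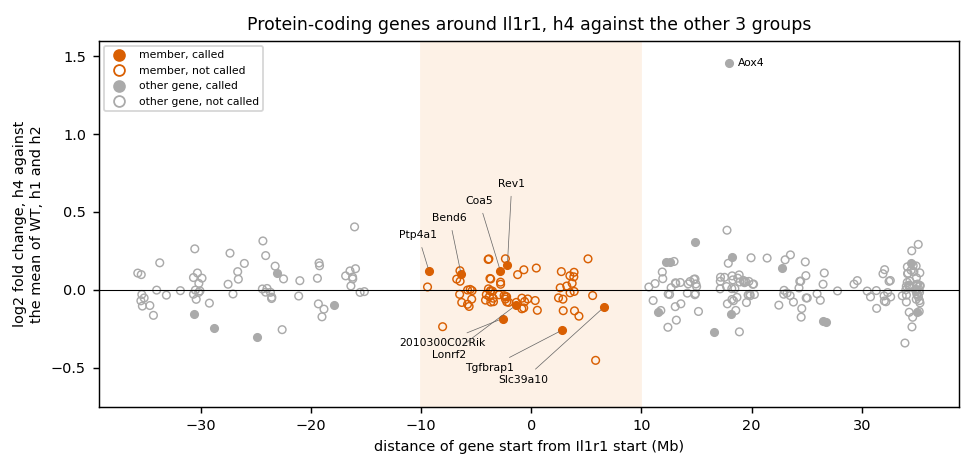
Log2 fold change of h4 against the mean of WT, h1 and h2 (vertical axis) for expressed protein-coding genes by distance of their start from the start of Il1r1 in Mb (horizontal axis). The shaded band is the 10 Mb window, coloured points are the members, grey points are other genes of the chromosome, and filled points are called. The 8 called members lie between -0.26 and 0.16, and Aox4, 17.99 Mb above Il1r1 and outside the window, is an aldehyde oxidase gene at 1.46. Il1r1 and the other genes of the window that are not members are not drawn.

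The called members were spread over the window and were not crowded against Il1r1. Among the 17 members that start up to 2.5 Mb below Il1r1 there were 2 calls, and on the upper side the nearest called member was Tgfbrap1, 2822.1 kb away. Further out, 2 of 19 were called at 2.5 to 5 Mb below, 1 of 12 at 5 to 7.5 Mb below and 1 of 3 at 7.5 to 10 Mb below. On the upper side 1 of 14 was called at 2.5 to 5 Mb and 1 of 4 at 5 to 7.5 Mb. Outside the window, 8 of 65 genes were called at 10 to 20 Mb above Il1r1, 1 of 16 at 10 to 20 Mb below, and 3 of 31 and 3 of 24 at 20 to 30 Mb above and below. With so few genes in most bands, no trend with distance was tested.

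The member with the clearest difference was Tgfbrap1 (ENSMUSG00000070939, minus strand, chr1:43047200-43098637, 2822.1 kb above Il1r1). Its protein is a subunit of the CORVET complex, which tethers early endosomes before they fuse, and it also binds receptors of the TGF-beta family. Its level was 58.0, 55.8 and 59.8 CPM in WT, 60.3, 60.2 and 57.7 CPM in h1, 58.4, 62.8 and 59.3 CPM in h2, and 49.7, 47.3 and 52.7 CPM in h4. All 3 h4 libraries were below all 9 others, and WT, h1 and h2 overlapped. In h4 it fell by 0.26 ± 0.04 on the log2 scale (SE; 95% interval -0.34 to -0.18) against the other 3 groups, which is 0.836 times their level, with an edgeR adjusted p of 0.000183. It was the only member called in h4 against each of the other groups: -0.22 against WT (adjusted p = 0.00765), -0.27 against h1 (adjusted p = 0.00153) and -0.28 against h2 (adjusted p = 0.000948). These 3 comparisons share the h4 libraries. The call held in each of the 16 or 17 alternative fits run per comparison, with adjusted p up to 0.0462. Per transcript length its level was 20.6 ± 0.52 TPM in WT (SD, n = 3) and 17.3 ± 1.05 TPM in h4.

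Tgfbrap1 shares its upstream region with another member. AI597479, an uncharacterised gene, starts on the plus strand at 43098710, so that the genes run away from each other from either side of a short gap. AI597479 averaged 43.4 ± 1.3 CPM in h4, 43.2 ± 1.45 CPM in h2, 45.9 ± 1.08 CPM in h1 and 45.5 ± 1.80 CPM in WT (SD, n = 3). It was not called in h4 against the other 3 groups (log2 fold change -0.06, 95% interval -0.15 to 0.03, edgeR adjusted p = 0.459). The 72 bases between the annotated ends are printed because they are what both genes have in common upstream (RefSeq, GRCm38.p6, chr1:43098638-43098709, minus strand, read toward Tgfbrap1). The capitals mark a GC box, the letters GGGCGG, which is a binding motif of Sp-family factors.
Tgfbrap1: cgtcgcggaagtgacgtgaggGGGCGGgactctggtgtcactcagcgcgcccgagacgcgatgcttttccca
The antisense genes Gm28782 and 8430432A02Rik also overlap Tgfbrap1, and the library kit does not mark the strand, so their reads cannot be told apart from those of Tgfbrap1.

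Ptp4a1 (ENSMUSG00000026064, chr1:30940302-30949309 in the annotation, 9284.8 kb below Il1r1) was the member with the smallest adjusted p among those that rose. It encodes PRL-1, a small membrane-bound phosphatase known to bind the CNNM magnesium transporters. Its level was 146, 150 and 151 CPM in WT, 155, 149 and 159 CPM in h1, 149.9, 164 and 151 CPM in h2, and 167, 165 and 170.4 CPM in h4. The h4 libraries were all above the other 9, though h2 replicate 2 came close to them. Ptp4a1 rose by 0.12 ± 0.03 (log2, SE) against the other 3 groups with an edgeR adjusted p of 0.0136, and by 0.16 ± 0.04 against WT with an adjusted p of 0.0116. Without h4 replicate 1 or h4 replicate 3 the first call ended (adjusted p = 0.0883 and 0.116), and the second ended without h4 replicate 1, h4 replicate 3 or WT replicate 1 (adjusted p = 0.0616, 0.0776 and 0.0949). The partners Cnnm3 and Cnnm4 are members too, and neither was called: Cnnm3 was at 30.7 ± 0.83 CPM in WT and 31.2 ± 0.99 in h4, and Cnnm4 at 14.8 ± 0.78 and 15.6 ± 1.15 CPM (SD, n = 3). The level of Ptp4a1 per transcript length is not usable, since its estimated transcript length ranged from 851 to 3554 bases between libraries and its TPM in h4 had an SD of 153 around a mean of 181. The annotation also has a second, overlapping Ptp4a1 identifier that was not used here. The RefSeq start used for Ptp4a1 lies 446 bases from the annotated start of the identifier tested. The upstream region of that RefSeq start is printed to show how rich in CpG it is. Its 235 bases outside annotated exons (RefSeq, GRCm38.p6, chr1:30949771-30950005, minus strand) hold 35 CpG and 2 GC boxes, in capitals, 1 of them on the opposite strand.
Ptp4a1: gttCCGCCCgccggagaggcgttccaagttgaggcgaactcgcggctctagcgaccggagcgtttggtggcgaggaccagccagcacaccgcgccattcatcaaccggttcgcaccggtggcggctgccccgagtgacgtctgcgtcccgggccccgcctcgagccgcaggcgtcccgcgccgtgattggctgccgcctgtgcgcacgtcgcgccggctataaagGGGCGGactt

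Coa5 (ENSMUSG00000026112, minus strand, chr1:37417084-37430103), which encodes a factor for the assembly of cytochrome c oxidase in mitochondria, also rose in h4. It was at 94.5, 91.9 and 94.5 CPM in WT, 91.5, 90.2 and 89.6 CPM in h1, 98.6, 90.8 and 92.1 CPM in h2, and 104, 101 and 99.7 CPM in h4. The 3 h4 libraries were above the other 9, with h2 replicate 1 next in order. The log2 fold change was 0.12 ± 0.03 (SE) against the other 3 groups (edgeR adjusted p = 0.0212) and 0.15 ± 0.04 against h1 (adjusted p = 0.0292). The first call ended without h4 replicate 1 (adjusted p = 0.177) or h4 replicate 2 (adjusted p = 0.0616). The second ended with the Xist covariate (adjusted p = 0.0521) and without any 1 of the h1 libraries, h4 replicate 1 or h4 replicate 2 (adjusted p = 0.0533 to 0.141).

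Coa5 too has a member on the other side of its start. Unc50, a Golgi membrane protein gene on the plus strand, starts at 37430139, and just 35 bases separate the annotated genes (RefSeq, GRCm38.p6, chr1:37430104-37430138, minus strand, read toward Coa5), with none of the searched motifs in them.
Coa5: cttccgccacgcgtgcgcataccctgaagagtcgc
Unc50 averaged 28.3 ± 2.30 CPM in h4, 26.9 ± 1.02 CPM in h2, 27.3 ± 1.92 CPM in h1 and 27.3 ± 0.54 CPM in WT (SD, n = 3). It was not called (log2 fold change 0.05, 95% interval -0.06 to 0.16, edgeR adjusted p = 0.677 in h4 against the other 3 groups). The interval of Unc50 includes the estimate of Coa5, whereas that of AI597479 does not include the estimate of Tgfbrap1. No test of either pair's difference was run.

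The gene 2010300C02Rik (ENSMUSG00000026090, minus strand, chr1:37611677-37720085), named Cracdl by RefSeq and without an established role, fell in h4. Its levels were 151, 163 and 147 CPM in WT, 154, 169 and 160 CPM in h1, 157, 149 and 149.98 CPM in h2, and 133, 149 and 131 CPM in h4. Replicates 1 and 3 of h4 were the lowest 2 libraries, while replicate 2, the male of that group, lay among those of WT and h2. It fell by 0.18 ± 0.04 on the log2 scale against the other 3 groups (edgeR adjusted p = 0.0141) and by 0.24 ± 0.05 against h1 (adjusted p = 0.0124). Without h4 replicate 1 both calls ended (adjusted p = 0.0891 and 0.0566), and without h4 replicate 3 the first did (adjusted p = 0.0834). Against WT its difference was -0.16 with an edgeR adjusted p of 0.0828, so it was not called there. It was called against WT by DESeq2 (adjusted p = 0.0293), and by edgeR with the Xist covariate (-0.20, adjusted p = 0.00938) and without the low-count filter (adjusted p = 0.00401). Some fits that left out 1 library called it too. The antisense gene 4930556I23Rik overlaps it.

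Bend6 (chr1:33852052-33907816, 6373.0 kb below Il1r1), the neuronal Notch repressor introduced above, was at 177, 174 and 172 CPM in WT, 179, 174 and 180.2 CPM in h1, 188, 176 and 179.7 CPM in h2, and 191, 188 and 197 CPM in h4. The h4 libraries were above those of WT and h1, and h2 replicate 1 lay just above the lowest of h4. Bend6 rose by 0.10 ± 0.03 (log2, SE) against the other 3 groups (edgeR adjusted p = 0.0281) and by 0.13 ± 0.03 against WT (adjusted p = 0.0263). The first call ended without the low-count filter (adjusted p = 0.11) and without h1 replicate 2 or 3, h2 replicate 2 or 3 or any 1 h4 library (adjusted p = 0.0516 to 0.23). The call against WT ended without the low-count filter (adjusted p = 0.0794), with the Xist covariate (adjusted p = 0.0532), in a fit of the pair of groups alone (adjusted p = 0.0512), and without any 1 WT library, h4 replicate 1 or h4 replicate 3 (adjusted p = 0.0751 to 0.172).

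Lonrf2 (chr1:38793645-38836711, 1431.4 kb below Il1r1) encodes a RING-type ubiquitin ligase of protein quality control in neurons. It was at 222, 219 and 212 CPM in WT, 210.2, 204 and 207 CPM in h1, 202, 205 and 212 CPM in h2, and 203, 190.1 and 200.3 CPM in h4. The h4 libraries were below those of WT and h1 and overlapped those of h2. Lonrf2 fell by 0.15 ± 0.04 on the log2 scale against WT (edgeR adjusted p = 0.0144) and by 0.10 ± 0.03 against the other 3 groups (adjusted p = 0.0346). In h1 and h2 it was -0.06 and -0.08 against WT, not called (adjusted p = 0.59 and 0.387). The call against WT ended without WT replicate 1 (adjusted p = 0.107), WT replicate 2 (adjusted p = 0.07) or h4 replicate 2 (adjusted p = 0.0705). The call against the other 3 groups ended without WT replicate 1 or 2, h1 replicate 1 or 3, h2 replicate 3 or any 1 h4 library (adjusted p = 0.0516 to 0.206).

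Slc39a10 (chr1:46807544-46892852), the last member of the window, encodes the zinc importer ZIP10. Its levels were 245, 242 and 229 CPM in WT, 241, 249.5 and 247 CPM in h1, 248, 257 and 233 CPM in h2, and 237, 225 and 219.7 CPM in h4. Only h4 replicates 2 and 3 were below every library of the other groups. The gene fell by 0.11 ± 0.03 on the log2 scale against the other 3 groups, with an edgeR adjusted p of 0.0463. Leaving out any 1 library other than WT replicate 3, h1 replicate 1 or h2 replicate 3 ended the call (adjusted p = 0.0514 to 0.277).

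Rev1 (minus strand, chr1:38052786-38129801) encodes a DNA polymerase that copies past damaged bases. It was at 32.8, 29.5 and 33.8 CPM in WT, 32.5, 30.6 and 31.5 CPM in h1, 30.1, 30.5 and 32.6 CPM in h2, and 35.6, 34.1 and 36.8 CPM in h4. The h4 libraries were above all others, by a margin of less than 1 CPM over WT replicate 3. Rev1 rose by 0.16 ± 0.05 (log2, SE) against the other 3 groups with an edgeR adjusted p of 0.0475, the weakest call of the 8. It was no longer called by DESeq2 (adjusted p = 0.0921), with RLE scaling (adjusted p = 0.0516), without the low-count filter (adjusted p = 0.072), with the Xist covariate (adjusted p = 0.0611), or without any 1 library other than WT replicate 3 and h2 replicate 3 (adjusted p = 0.0553 to 0.243). Its end overlaps that of Eif5b on the other strand, so reads from the shared stretch cannot be assigned. Eif5b, a factor for joining of ribosomal subunits, was at 110.3 ± 5.53 CPM in WT and 106 ± 2.70 CPM in h4 (SD, n = 3) and was not called (-0.08, adjusted p = 0.161, against the other 3 groups).

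**Figure D2:**
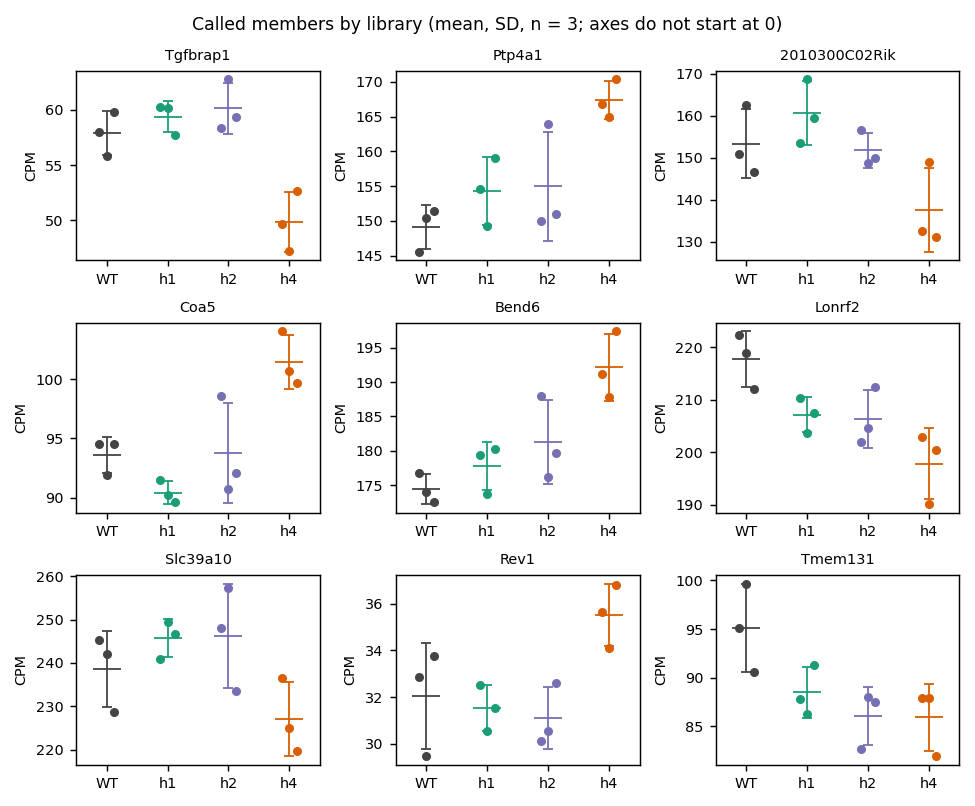
CPM (vertical axes, which do not start at 0) of the 9 members called in any comparison, by genotype. Points are single libraries, the horizontal bar is the mean of 3 and the error bar is the SD. For Tgfbrap1 the 3 h4 points, at 47.3 to 52.7 CPM, lie below all others, while for Tmem131 those of h1, h2 and h4 overlap below the WT mean of 95.1 CPM.

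Against WT alone, 5 members were called in h4 (6.85%), beside 4.55% of all genes tested. Higher in h4 were Ptp4a1 and Bend6 (2 members, background 1.64%), and lower were Tgfbrap1, Lonrf2 and Tmem131 (3 members, background 2.91%). In 16 of 73 members the h4 and WT libraries did not overlap, a share of 21.9% beside a background of 21.3%. On the rest of chromosome 1 the share called was 4.99%, and within 10 Mb of Rorb it was 7.78%. The count fell to 1 without WT replicate 1 and to 2 without WT replicate 2, h4 replicate 1 or h4 replicate 3, and it was 3 in a fit of h4 and WT alone.

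Tmem131 (chr1:36792191-36943666), which encodes a membrane protein needed for collagen secretion, was called in h4 against WT and in no other comparison of the 7. It was at 95.1, 99.7 and 90.5 CPM in WT, 87.8, 86.3 and 91.3 CPM in h1, 82.6, 88.0 and 87.5 CPM in h2, and 87.9, 87.9 and 81.9 CPM in h4. The libraries of all mutants lay below the WT mean. It fell by 0.16 ± 0.04 on the log2 scale in h4 (edgeR adjusted p = 0.0407), while h2 was at -0.14 (adjusted p = 0.144) and h1 at -0.09 (adjusted p = 0.472), not called. Between h4 and h2 the difference was -0.01, with an adjusted p of 0.931. The call in h4 ended with the Xist covariate (adjusted p = 0.0632), in a fit of the pair of groups alone (adjusted p = 0.0517), and without WT replicate 1 or 2 or h4 replicate 1 or 3 (adjusted p = 0.0617 to 0.223). The 3 comparisons against WT share the WT libraries.

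Between h4 and the other mutants fewer members were called. Against h1 there were 3 (4.11%, background 4.64%): Tgfbrap1, 2010300C02Rik and Coa5. Without h4 replicate 1 that count was 1. Against h2 there was 1 (1.37%, background 3.22%), which was Tgfbrap1, and the count was 2 without h2 replicate 3 or h4 replicate 2.

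In the mutants whose strains do not carry the targeted Il1r1, the edgeR test called 0 of 73 members. For h1 against WT the background was 0.625%, 4 members had an unadjusted p under 0.05 and DESeq2 called 0. For h2 against WT the background was 0.679%, 8 members had an unadjusted p under 0.05 and DESeq2 called 0. For h2 against h1 the background was 0.722%, 2 members had an unadjusted p under 0.05 and DESeq2 again called 0. Log2 fold changes ran from -0.39 to 0.24 in h1 and from -0.38 to 0.33 in h2, against -0.59 to 0.26 in h4. The 95% interval lay within 1.2-fold of no change for 54 members in h1, 51 in h2 and 48 in h4. Whether h4 differs from h1 and h2 in the size of its change against WT is what the direct comparisons of h4 with them test, and they called 3 members and 1 member. Without WT replicate 3, Tmem131 (-0.18, adjusted p = 0.0333) and Uggt1 (-0.17, adjusted p = 0.0478), which encodes the glucosyltransferase that checks folding in the endoplasmic reticulum, were called in h2 against WT.

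**Figure D3:**
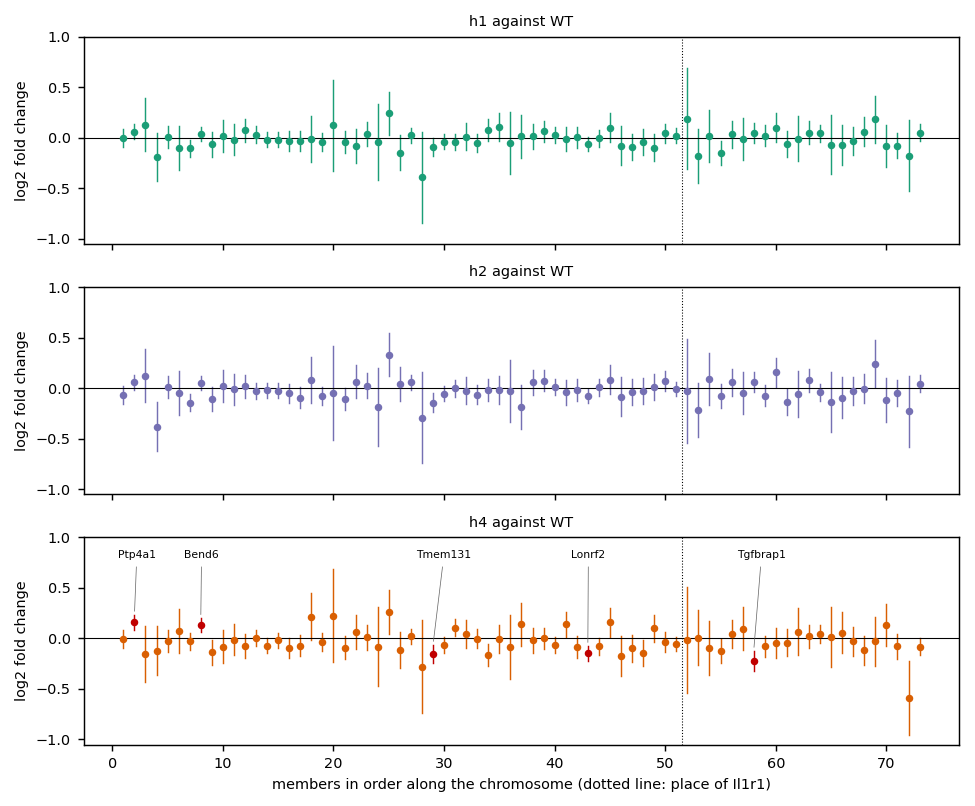
Log2 fold change of each member against WT in h1, h2 and h4 (vertical axes) with its 95% interval, in order along the chromosome (horizontal axis, 73 members). Red points are called, and the dotted line marks the place of Il1r1. The h1 and h2 panels have no red point, and the 5 of h4 lie at separate places.

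Genes left out by name may lie closer to Il1r1 and are not counted here. The 3 members closest to Il1r1 on each side were not called in any comparison. Below it these are Map4k4, a kinase of stress signalling, 324.2 kb away, Creg2, a secreted brain glycoprotein, 606.7 kb away, and Rnf149, a ubiquitin ligase, 673.8 kb away. Map4k4 was at 192 ± 7.96 CPM in WT and 186 ± 4.48 in h4, Creg2 at 109.9 ± 6.36 and 108 ± 7.38, and Rnf149 at 23.8 ± 1.77 and 25.6 ± 1.12 CPM (SD, n = 3). Above it are the sodium-proton exchangers Slc9a4 at 355 kb and Slc9a2 at 455.5 kb, and Mfsd9, a transporter-like protein, at 547 kb. Their levels in WT and h4 were 1.66 ± 0.42 and 1.65 ± 0.51 CPM for Slc9a4, 7.83 ± 1.35 and 7.92 ± 0.79 for Slc9a2, and 5.53 ± 0.14 and 5.21 ± 0.45 CPM for Mfsd9. Their log2 fold changes in h4 against the other 3 groups ran from -0.13 for Mfsd9 to 0.14 for Slc9a2. The precision differed: the 95% interval of Map4k4 was -0.12 to 0.0005, and that of the weakly expressed Slc9a4 was -0.50 to 0.37.

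By role, the members covered many functions, and the calls were scattered over them. Of 74 genes in 9 lists of window genes by function, 52 are members, and 21 members are in no list. In h4 against the other 3 groups, 1 of 9 members of the cytoskeleton and vesicle traffic list was called lower (Tgfbrap1), with a list median of -0.04. Of the protein folding and ubiquitin list 1 of 5 was called lower (Lonrf2), median -0.03. The list of DNA replication and repair had 1 of 3 called higher (Rev1), median 0.07, and it also holds Ccdc115, which is better known for assembly of the proton pump V-ATPase. The remaining 5 calls (Ptp4a1, Coa5, Bend6, 2010300C02Rik and Slc39a10) fell on members in no list. The lists are not complete: Ptp4a1 is a phosphatase, Slc39a10 a zinc importer, Bend6 a transcriptional repressor and Ercc5 a DNA repair nuclease. None of them is in the list of that role, so the counts and medians of those lists leave them out. Ercc5 was at -0.14 in h4 against the other 3 groups and was not called (edgeR adjusted p = 0.18), so the median of the short repair list depends on its make-up. Some lists also hold members described here by another role. The co-chaperone Txndc9 is under translation and RNA, and Fam168b, a regulator of myelin inhibition, is under transcription and chromatin. List medians therefore describe the lists as drawn up, and not strictly the roles they are named for. The median over all genes tested was 0.0075.

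In the 8 members of the transcription and chromatin list the median was -0.06. Its most abundant members were Fam168b, a neuronal regulator of myelin inhibition, at 344 ± 11.3 CPM in WT and 329 ± 2.56 in h4, and Kansl3, a subunit of a histone acetyltransferase complex, at 85.7 ± 0.78 and 84.2 ± 2.04 CPM (SD, n = 3). All 3 h4 libraries of Fam168b were below the other 9, yet the difference was -0.06 with an edgeR adjusted p of 0.242. The translation and RNA list of 10 members had a median of -0.04, and beside Eif5b it holds Txndc9, a co-chaperone of the thioredoxin family, at 43.7 ± 2.65 CPM in WT and 44.0 ± 0.69 in h4. The 7 kinases, phosphatases and adaptors had a median of -0.03, with Inpp4a, a phosphatase of membrane inositol lipids, at 173 ± 9.25 CPM in WT and 167 ± 1.99 in h4. The 5 ion and solute transporters had a median of -0.01. The 4 genes of glycan synthesis had a median of -0.04, with Chst10, which sulphates the HNK-1 glycan of neural cells, at 70.5 ± 1.74 CPM in WT and 67.2 ± 3.21 in h4, and Hs6st1, a sulphotransferase of heparan sulphate, at 57.3 ± 2.37 and 54.0 ± 2.08 CPM. The matrix list had 1 member, the collagen gene Col5a2, at 10.7 ± 1.33 CPM in WT and 11.8 ± 1.51 CPM in h4; its log2 difference was 0.20 (95% interval 0.02 to 0.37, edgeR adjusted p = 0.174) in h4 against the other 3 groups.

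**Figure D4:**
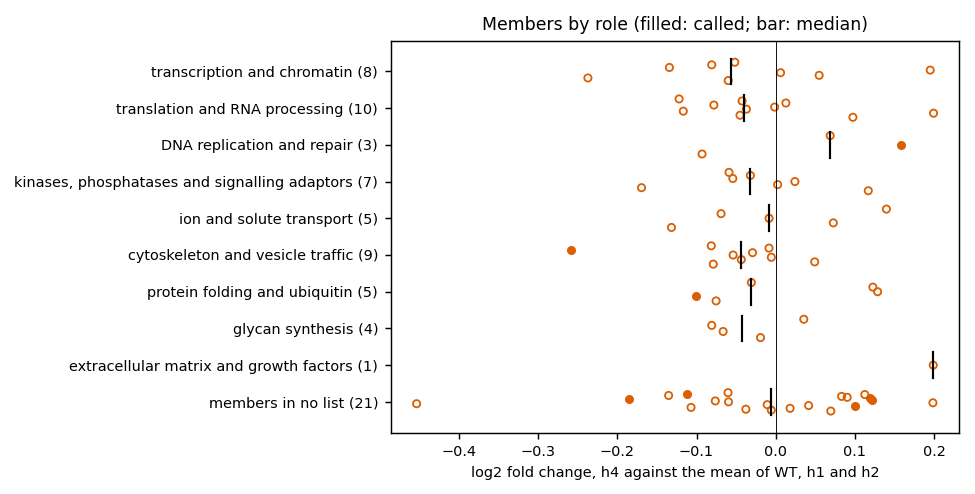
Log2 fold change in h4 against the mean of WT, h1 and h2 (horizontal axis) for the members of each role list and for the 21 in no list, with the number of members in brackets. Filled points are called and the vertical bar is the list median. The medians of the lists with more than 3 members lie between -0.06 and -0.01.

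The transcript mix of the members, a readout that their choice did not use, was compared through the effective length that RSEM averages over the isoforms of a gene. With limma on log2 length, 0 of 73 members were called in h4 against the other 3 groups, beside a background of 0.00606% (1 of 16493 genes). For many members, among them Tgfbrap1, Coa5, Rev1 and Tmem131, the length moved between libraries by the same few bases. In WT, Tgfbrap1 was at 5329, 5331 and 5322 bases and Rev1 at 4052, 4054 and 4045 bases. A change of transcript mix could not show in such members, so their lack of a call says nothing about it. At an unadjusted p under 0.05 there were 5 members. The smallest adjusted p belonged to Uggt1, whose length was 5231 to 5685 bases in h4 and 5482 to 5769 bases in h2, beside 5908 to 6151 bases in h1 and 5955 to 6049 bases in WT, a log2 difference of -0.10 ± 0.02 (SE) with a limma adjusted p of 0.572. Its h2 and h4 libraries overlapped each other and lay below those of WT and h1.

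RefSeq promoters of 300 bases (250 before the start and 50 after) were found for 65 of the 73 members, 3 of them by an older symbol. For a member the promoter nearest its annotated start was taken, and for the comparison sets the first listed per gene. The shares are thus not fully alike. Some members' promoters lay far from the annotated start, such as those of Dst (103370 bases), Aff3 (37711 bases) and Slc39a10 (32924 bases). They held a median of 23 CpG, beside 21 in 10887 promoters of expressed protein-coding genes and 7 in all 27025. A GC box (GGGCGG, either strand) was in 61.5% of the members' promoters, 64.3% of the expressed and 35.9% of all. The E-box CACGTG was in 12.3% (8 of 65), beside 10.0% and 7.2%, and the cAMP response element TGACGTCA in 6.2% (4 of 65), beside 3.2% and 1.9%. Letters of the kind that ROR receptors such as the product of Rorb bind were rare: TAGGTCA was in 0 of 65 promoters, beside 1.7% of expressed and 2.6% of all, and TGGGTCA in 4.6% (3 of 65), beside 3.1% and 3.9%. All motifs were searched on both strands, and none of the 5 contains another. Some promoters overlap, so that 1 stretch can count for 2 members. Kdelc1 and Bivm, both among the 3 with TGGGTCA, share most of their bases. So do Imp4 and Ccdc115, both among the 8 with the E-box.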

How the data were processed

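For each library the authors deposited a gene table made with Bowtie2 2.2.0 and RSEM 1.2.12, per the submitters' processing notes. Its genome build and annotation were not given in the sources used. Expected counts, as deposited, are estimated read pairs per gene, which can be shared between similar genes (77.7% of values above 0 were whole). The deposited TPM values are scaled by transcript length and library, and the deposited FPKM values were not used. Of 38924 gene identifiers, 37607 were found in GENCODE M21 (GRCm38), which gave positions. Per the labels the library kit was TruSeq RNA v2, which does not mark strand.

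Expected counts were rounded and tested with edgeR 4.0.16 (R 4.3.3, quasi-likelihood, robust, TMM factors 0.991 to 1.012, low-count filter, 1 mean per genotype over 12 libraries). The common biological coefficient of variation was 0.0531. CPM is the expected count scaled to 1 common library total. Effective lengths, in the authors' deposited tables, were tested with limma 3.58.1. The tests were checked on simulated data. Alternatives were DESeq2 1.42.0, RLE scaling, no low-count filter, an Xist covariate, fits of the compared groups alone, leaving out each library and a replicate block.

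The text names members called in any comparison, the 3 nearest to Il1r1 on each side, those at the limits of the window and of 1 CPM, and up to 2 of highest CPM per list with none called. Upstream sequence was printed for the 2 smallest adjusted p in each direction, outside annotated exons, and 2010300C02Rik had none. The members and lists were chosen with earlier results of these data known.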

Additional observations from a re-analysis of the deposited data

How the results depend on the processing

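Over the alternatives, the 17 calls of single members gave 281 values, of which 209 kept the call, 72 lost it and 0 changed direction. Tgfbrap1 kept its call in every one. Some of the 281 values left out a library outside the pair compared, which hardly moved the estimate. Tgfbrap1 in h4 against WT was at -0.2234 with all 12 libraries and at -0.2268 without h1 replicate 1. The share that kept the call is therefore not a measure of stability. DESeq2 called 5 members in h4 against h1 in place of 3. Without the low-count filter 3 were called in h4 against h2 in place of 1, and a fit of h4 and WT alone called 3 in place of 5. Leaving out 1 library at a time gave 1 to 8 called members for h4 against the other 3 groups, 1 to 6 for h4 against WT, 1 to 3 for h4 against h1, 1 to 2 for h4 against h2 and 0 to 2 for h2 against WT. The cause was not tested. For h1 against WT, h2 against h1 and the estimated lengths no alternative run called a member. Samples of h1 and h2 share replicate numbers in their titles, but same-numbered libraries did not deviate together (r = -0.147, -0.112 and 0.028 over genes). The fit with the replicate block, on the h1 and h2 libraries alone, called 0 members in h2 against h1 and 204 genes in all. Without the block the same libraries gave 193 genes, and the fit of all 12 libraries gave 119. With 3 libraries per group, the median standard error of 0.051 to 0.063 (log2) limits what could be called.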

Other observations

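Besides the members and the genes left out by name, 11 other features of the window were tested. Of these 11, Pantr1 had the smallest adjusted p in h4 against the other 3 groups. It is described after its values were seen. Pantr1 is a long intergenic RNA on the minus strand (chr1:42590782-42694842) that runs away from Pou3f3, a POU-family transcription factor of the developing cortex and itself a member. Pantr1 was at 22.0, 23.3 and 23.2 CPM in WT, 21.4, 21.7 and 22.0 CPM in h1, 22.5, 20.5 and 22.5 CPM in h2, and 28.3, 36.9 and 31.4 CPM in h4. All 3 h4 libraries were above the other 9. It rose by 0.53 ± 0.06 (log2, SE) against the other 3 groups, with an edgeR adjusted p of 2.29e-06, and by 0.49 against WT (adjusted p = 0.000205), 0.55 against h1 (adjusted p = 5.98e-05) and 0.56 against h2 (adjusted p = 7.25e-05). In h1 and h2 it was -0.06 and -0.07 against WT, not called (adjusted p = 0.855 and 0.809). Pou3f3 averaged 45.9 ± 2.49 CPM in h4, 47.2 ± 2.84 CPM in h2, 44.7 ± 3.25 CPM in h1 and 49.8 ± 2.38 CPM in WT (SD, n = 3), with a log2 fold change of -0.05 and an edgeR adjusted p of 0.61 in h4 against the other 3 groups. Gm26788, a processed transcript that overlaps Dst on the opposite strand, fell by 1.46 ± 0.41 on the log2 scale in h4 against WT (edgeR adjusted p = 0.04), from a level of at most 1.248 CPM in any library.

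Dnah7b, a dynein heavy chain of motile cilia and a member, was also singled out after its values were seen, as the member with the largest difference in h4. It was at 19.3, 16.7 and 19.6 CPM in WT, 17.7, 15.0 and 16.3 CPM in h1, 13.4, 14.9 and 18.7 CPM in h2, and 14.7, 9.07 and 13.5 CPM in h4. The edgeR test did not call it against the other 3 groups (-0.45 ± 0.14, adjusted p = 0.0885) or against WT (-0.59, adjusted p = 0.0805), while DESeq2 called it in both (adjusted p = 0.00215 and 0.000763). It has close copies in the genome, and whether reads were shared with them was not tested. In h1 and h2, the members with the smallest adjusted p against WT were Zfp451 in h2 (-0.14, edgeR adjusted p = 0.111), followed there by Tmem131 (-0.14, adjusted p = 0.144), and Pou3f3 in h1 (-0.15, adjusted p = 0.341).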
